A study of Danio rerio with 2 samples.

Results

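The matrix metalloproteinases (MMPs) and their tissue inhibitors (TIMPs) were examined in bulk RNA-seq of EGFP+ cells from zebrafish. The genes were those named *mmp2*, *mmp9*, *mmp13a*, *mmp14a*, *mmp14b*, *mmp25b*, *timp2a* and *timp2b*, found by matching symbols to Ensembl gene identifiers. All 8 were found, out of 32520 genes counted. The gene names used here list *mmp14a* and *mmp14b* both as *MMP14*, and *timp2a* and *timp2b* both as *TIMP2*, so these 4 genes are given by identifier and no paralog letter is assigned.

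One library came from EGFP+ myeloid cells sorted from melanoma, whose source is labelled CD8 dendritic cells, and the other from EGFP+ lymphocytes sorted from the thymus, whose source is labelled CD8 T cells. The melanoma fish carried cd8a:EGFP and an oncogenic human BRAF and were null for p53 and nacre. In them *mitfa* was given back with the MiniCoopR vector, and the labels give an age of 6 weeks and 24 h of SB431542, an inhibitor of TGF-β receptors. The thymus fish carried cd8a:EGFP, their labels also give lck:mCherry-positive cells and 6 weeks of age, and they had no treatment. The paper gives an older age for the thymus fish and describes no SB431542 for the sequenced melanoma cells. EGFP in both was driven by a cloned region upstream of *cd8a*. Each group had 1 library, and the number of fish behind it is not given in the sources used here. The 2 libraries therefore differ in tissue, cell type, tumor genotype and treatment at once, and these cannot be told apart. With no replicates, all intervals in parentheses are 95% intervals (Wilson for levels and shares, exact conditional for ratios) that cover counting error of reads only. Amplified reads carried no molecular identifiers and several can stem from one molecule. The intervals can therefore be too narrow even for the counting of molecules. Differences compare these libraries, not the conditions, and no test between conditions was possible.

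MMPs are zinc-dependent proteases that cleave collagens, gelatins, laminins and other proteins of the extracellular matrix. Most are made as inactive proenzymes, in which a cysteine of the propeptide blocks the active site until it is cleaved. TIMPs bind the active site and inhibit it. In mammals, TIMP2 also links pro-MMP2 to the membrane-anchored MMP14, which then activates it. Macrophages and neutrophils are known sources of secreted MMPs, and so are fibroblasts and cancer cells.

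Reads on genes numbered 39446435 in the melanoma myeloid cells, against 32975680 in the thymus library. Levels are counts per 1000000 reads on genes (CPM), without scaling for gene length, so levels were compared between the libraries and not between genes, except where the genes nearest to *mmp9* were sought. A gene at 1 CPM or more is called expressed. For bounds on ratios, 0 reads were set at 3 reads, worth 0.0761 CPM for the myeloid library and 0.0910 CPM for the thymus library. Marker genes were read beside these labels. Of 13 T cell markers, 2 were expressed in the melanoma myeloid cells, against 13 in the thymus library. Of 28 mononuclear phagocyte genes, 18 were expressed in the melanoma myeloid cells, against 5 in the thymus library. They summed to 4484 CPM in the myeloid library, against 917 CPM in the thymus library, where *cd74a* alone was at 604 CPM. *LGMN* was at 2604 CPM in the myeloid library, against 43.4 CPM in the thymus library, and *SPI1* at 314 and 0.0607 CPM. However, *ptprc* and *cd74a* were lower in the myeloid library. Melanocyte markers summed to 24741 CPM in the myeloid library, against 1.49 CPM in the thymus library. Keratinocyte markers summed to 572 CPM in the myeloid library, with *krt8* at 316 CPM, and to 472 CPM in the thymus library, with *cldni* at 421 CPM. Of 8 endothelial markers, 0 were expressed in the melanoma myeloid cells, against 1 in the thymus library.

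**Figure D1:**
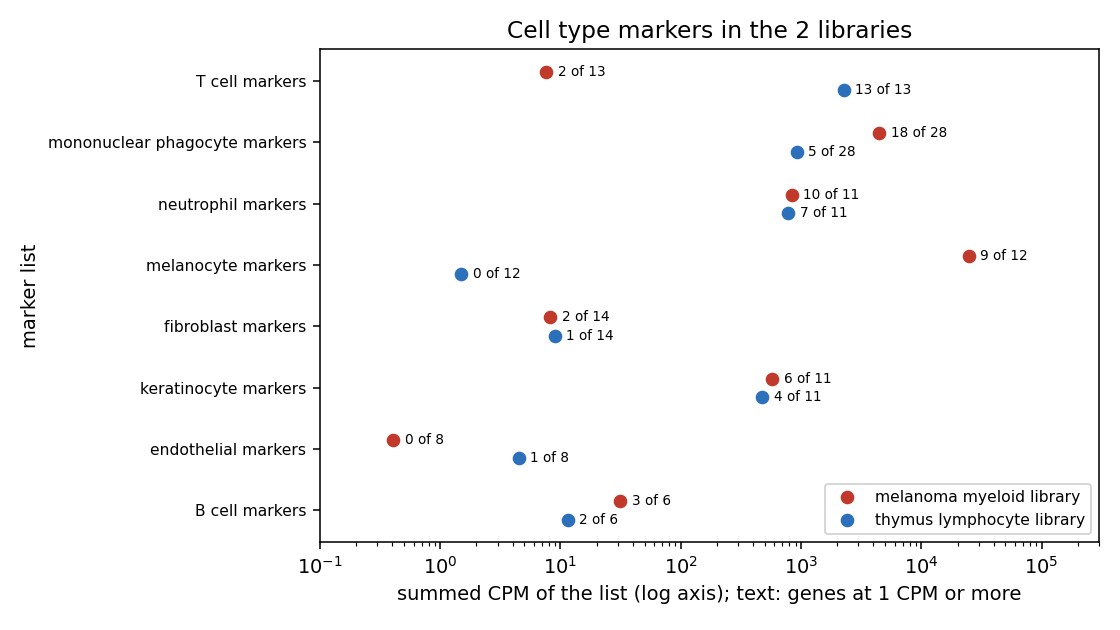
Summed CPM of 8 marker lists (log axis) in the melanoma myeloid library (red) and the thymus lymphocyte library (blue), with the number of genes at 1 CPM or more beside each point. Melanocyte markers sum to 24741 CPM in the myeloid library. Neutrophil markers sum to 837 CPM in the myeloid library, against 777 CPM in the thymus library, the latter mostly from *LECT2* (ENSDARG00000090889), *NCF1* and *srgn*.

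Of the 8 MMP and TIMP genes, 7 were expressed in the myeloid library, where 33.0% of all genes were, and 4 in the thymus library, where 39.8% of all genes were. The exception in the myeloid library was *mmp2*. The 4 genes expressed in the thymus library were *mmp9*, *mmp25b*, *MMP14* (ENSDARG00000008388) and *TIMP2* (ENSDARG00000061226). These counts were the same at thresholds of 0.5 and 5 CPM and under the other library scalings tried. In bulk samples, fewer cells of a type and less RNA per cell cannot be told apart.

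**Figure D2:**
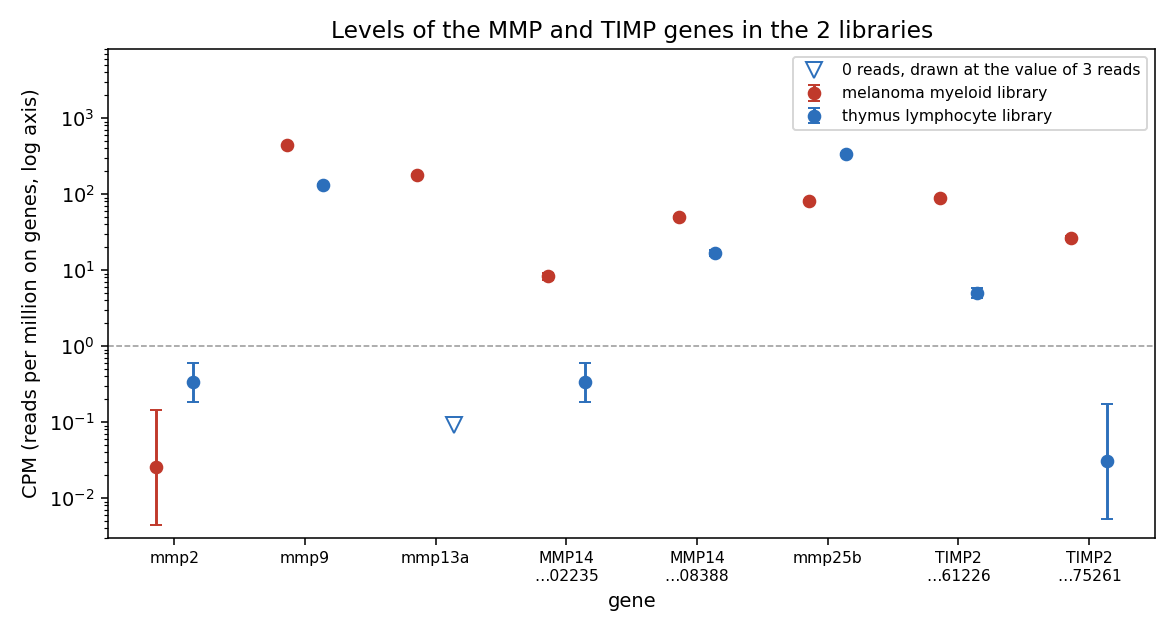
CPM (log axis) of the 8 genes in the melanoma myeloid library (red) and the thymus lymphocyte library (blue), with 95% Wilson intervals, the dashed line at 1 CPM, and an open triangle at the value of 3 reads for a count of 0. The red points lie above the blue ones except for *mmp25b*, at 80.5 against 340.4 CPM, and *mmp2*, which is below 1 CPM in both.

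Among the secreted enzymes, *mmp9* (ENSDARG00000042816) encodes a gelatinase, which cleaves denatured collagen and collagen IV of basement membranes. It had 17356 reads, or 440.0 CPM (433 to 447), in the myeloid library, against 4354 reads, or 132 CPM (128 to 136), in the thymus library. The myeloid level was thus 3.33-fold higher (3.22 to 3.45), with *mmp9* well above 1 CPM in both libraries. In RefSeq GRCz12tu, the *mmp9* model overlaps *dclre1b*, *adora1b* and *zgc:110353*, so that reads near shared positions are uncertain. Of these, *dclre1b* was at 22.1 CPM in the myeloid library, against 4.73 CPM in the thymus library, and the other two had 2 reads or fewer.

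*mmp13a* (ENSDARG00000012395) encodes a collagenase, which cuts fibrillar collagen. It had 7053 reads, or 179 CPM (175 to 183), in the myeloid library and 0 reads in the thymus library, where the upper Wilson limit was 0.116 CPM. Set against 3 reads in the thymus library, it was at least 1965-fold higher in the myeloid library. Of these secreted enzymes, *mmp9* was thus found in both libraries and *mmp13a* in the myeloid library alone. *mmp30*, which lies in the same stretch of the genome as *mmp13a* in RefSeq GRCz12tu, had 1 read in the myeloid library, against 2 reads in the thymus library.

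*mmp2* (ENSDARG00000017676) encodes the other gelatinase of vertebrates. It had 1 read in the myeloid library, or 0.0254 CPM (0.00448 to 0.144), against 11 reads, or 0.334 CPM (0.186 to 0.597), in the thymus library. The thymus level was 13.2 times the myeloid level (1.91 to 566), a ratio that rests on 1 read. Both values were below 1 CPM, and *mmp2* was not counted as expressed in either library. The genes for integrin β1, *ITGB1*, a protein of most cells, likewise had between 0 and 4 reads each in the myeloid library, and the highest of them in the thymus library was at 54.7 CPM. Whether transcripts were lost in amplification was not tested.

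Secreted MMPs can come from neutrophils as well as macrophages, and genes of a neutrophil list were expressed in both libraries. Of its 13 symbols, 9 were matched, and the neutrophil marker *mpx* was not among them. The paper reports that the melanoma myeloid cells did not express *mpx*. Of 11 neutrophil marker genes, 10 were expressed in the myeloid library, summing to 837 CPM, and 7 in the thymus library, summing to 777 CPM. The granule genes *lyz* and *npsn* were named after their values were seen. *lyz* had 298 reads, or 7.55 CPM, in the myeloid library, against 0 reads in the thymus library. *npsn* had 1152 reads, or 29.2 CPM, in the myeloid library, against 1 read in the thymus library. Other genes of the list had the opposite direction. *LECT2* (ENSDARG00000090889) was at 108.0 CPM in the myeloid library, against 373 CPM in the thymus library. *NCF1* was at 57.3 CPM in the myeloid library, against 195 CPM in the thymus library, and *srgn* was at 119 CPM in the myeloid library, against 183 CPM in the thymus library. None of these genes reached the 4-fold limit used below. Of 10 neutrophil genes tested against it, 6 were higher in the myeloid library and 0 lower. Over all genes tested, 21.9% were higher and 39.2% lower. *nccrp1*, called higher, was at 410 CPM in the myeloid library, against 16.7 CPM in the thymus library. The other *LECT2* gene (ENSDARG00000033227) was at 68.2 CPM, against 1.30 CPM. *lyz*, *npsn* and *cxcr1* passed the 1 CPM filter only through their myeloid level. *CSF3R*, not called, was at 4.99 CPM in the myeloid library, against 3.64 CPM in the thymus library. *il6r*, called higher, was at 25.6 CPM in the myeloid library, against 3.40 CPM in the thymus library. *LECT2* (ENSDARG00000090889), *NCF1* and *srgn* made up most of the thymus sum, so the similar sums do not measure similar neutrophil content. The part of neutrophils, macrophages and melanoma cells in the *mmp9* and *mmp13a* levels of the myeloid library was not tested.

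The membrane-anchored enzymes included both *MMP14* genes. MMP14 is a collagenase of the cell surface and, in mammals, the activator of pro-MMP2. *MMP14* (ENSDARG00000008388) had 1951 reads, or 49.5 CPM (47.3 to 51.7), in the myeloid library, against 557 reads, or 16.9 CPM (15.5 to 18.4), in the thymus library. Its myeloid level was 2.93-fold higher (2.66 to 3.22). The paralog *MMP14* (ENSDARG00000002235) had 326 reads, or 8.26 CPM (7.41 to 9.21), in the myeloid library, against 11 reads, or 0.334 CPM (0.186 to 0.597), in the thymus library. It was 24.8-fold higher in the myeloid library (13.7 to 50.1), and only there was it expressed.

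The *MMP14* genes thus differed from each other in how far they were shared by the 2 libraries. The second paralog took 14.3% (12.9 to 15.8) of the *MMP14* reads in the melanoma myeloid cells, against 1.94% (1.08 to 3.43) in the thymus library. A ratio of reads between 2 genes does not depend on how the libraries are scaled, and its change between libraries does not depend on gene length when the same transcripts are made. By this measure the paralogs differed 8.46-fold between the libraries (4.62 to 17.2). Fibroblasts are another known source of MMP14 and MMP2. Of 14 fibroblast marker genes, 2 were expressed in the myeloid library, summing to 8.19 CPM, and 1 in the thymus library, summing to 8.95 CPM. *col1a1a* had 6 reads in the myeloid library, against 3 reads in the thymus library, and *DCN* had 0 reads in both. *PDGFRB* was at 5.45 CPM in the myeloid library, against 0.273 CPM in the thymus library, whereas *PRRX1* (ENSDARG00000042027) had 0 reads in the myeloid library, against 6.49 CPM in the thymus library. The part of fibroblasts in the *MMP14* levels was not tested.

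*mmp25b* (ENSDARG00000010556) was the one gene of the 7 expressed in the myeloid library that had its higher level in the thymus library. Human MMP25 is a membrane-anchored MMP known from leukocytes, above all from neutrophils. *mmp25b* had 3177 reads, or 80.5 CPM (77.8 to 83.4), in the myeloid library, against 11226 reads, or 340.4 CPM (334 to 347), in the thymus library. It was thus 4.23-fold higher in the thymus library (4.06 to 4.40). Its paralog *mmp25a* had 0 reads in both. Neutrophil markers summed to 837 CPM in the myeloid library, against 777 CPM in the thymus library. Most of the thymus sum was *LECT2* (ENSDARG00000090889), *NCF1* and *srgn*, while *lyz* and *npsn* had 0 and 1 reads in that library. T cell markers summed to 7.55 CPM in the myeloid library, against 2256 CPM in the thymus library. The part of the different cell types in the *mmp25b* levels was not tested.

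Both inhibitor genes were higher in the myeloid library. *TIMP2* (ENSDARG00000061226) had 3499 reads, or 88.7 CPM (85.8 to 91.7), in the myeloid library, against 167 reads, or 5.06 CPM (4.35 to 5.89), in the thymus library. Its myeloid level was 17.5-fold higher (15.0 to 20.6). *TIMP2* (ENSDARG00000075261) had 1036 reads, or 26.3 CPM (24.7 to 27.9), in the myeloid library and 1 read, or 0.0303 CPM (0.00535 to 0.172), in the thymus library. The ratio was 866 (155 to 34240), an interval that is wide because it rests on that 1 read. This gene took 22.8% (21.6 to 24.1) of the *TIMP2* reads in the melanoma myeloid cells, against 0.595% (0.105 to 3.29) in the thymus library, so the *TIMP2* paralogs, like those of *MMP14*, differed in how far the libraries shared them. In RefSeq GRCz12tu the *timp2a* model overlaps *cyth1b*, for which 2 counted genes were matched. Together these were at 360 CPM in the myeloid library, against 369 CPM in the thymus library. Whether both overlap *timp2a* was not tested, so the sum can exceed the level of the overlapping gene. The *mmp14b* and *timp2b* models each overlap another RefSeq gene too, for which no counted gene was matched, so that 4 of the 8 genes have overlapping models. *TIMP2* is a known product of many cell types, melanoma cells among them, and melanocyte markers were high in the myeloid library, where 9 of 12 were expressed, against 0 of 12 in the thymus library. *oca2* and *pmelb* had 0 reads in the myeloid library. The part of melanoma RNA in the *TIMP2* levels was not tested.

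**Figure D3:**
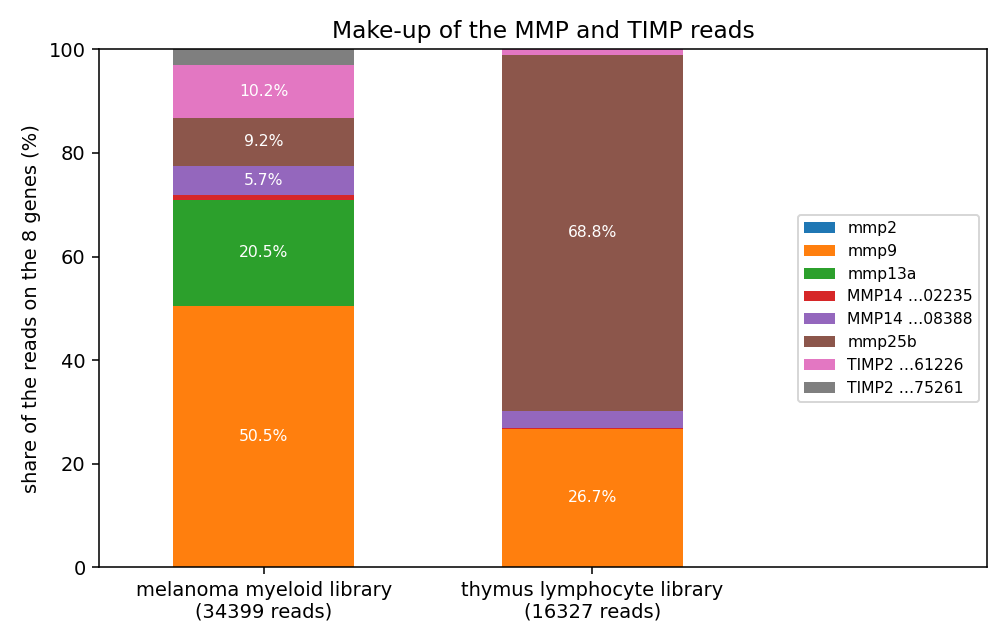
Share of the reads on the 8 genes that each gene took (percent, stacked from 0), in the melanoma myeloid library (34399 reads) on the left and the thymus lymphocyte library (16327 reads) on the right. *mmp9* takes 50.5% in the melanoma myeloid cells, against 26.7% in the thymus library, and *mmp25b* takes 9.24% and 68.8%.

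Read against each other within a library, the genes made up different sets. In the myeloid library, *mmp9* took 50.5% (49.9 to 51.0) of the 34399 reads on the 8 genes, *mmp13a* took 20.5% (20.1 to 20.9), and both *TIMP2* genes took 10.2% and 3.01%. In the thymus library, *mmp25b* took 68.8% (68.0 to 69.5) of 16327 reads and *mmp9* took 26.7% (26.0 to 27.4), followed by *MMP14* (ENSDARG00000008388) with 3.41%. Shares of reads favour long transcripts, and only their difference between the libraries is read here.

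Set against the inhibitors, the proteases had fewer reads per *TIMP2* read in the myeloid library. There were 6.59 reads on the 6 MMP genes per read on the 2 *TIMP2* genes in the melanoma myeloid cells, against 96.2 in the thymus library, a 14.6-fold lower ratio in the myeloid library (12.5 to 17.2). For *mmp9* alone the ratio to *TIMP2* was 3.83 in the melanoma myeloid cells, against 25.9 in the thymus library. For *mmp25b* it was 0.701 in the melanoma myeloid cells, against 66.8 in the thymus library. *mmp9* and both *MMP14* genes kept nearly the same proportion, at 7.62 *mmp9* reads per *MMP14* read in the melanoma myeloid cells, against 7.67 in the thymus library, and the ratio of these values was 0.994, with an interval that includes 1. *mmp25b* had 0.183 reads per *mmp9* read in the melanoma myeloid cells, against 2.58 in the thymus library, which is 14.1-fold lower in the myeloid library (13.4 to 14.8). Ratios were computed for 8 pairs, all chosen after the values were seen. Transcript reads do not measure the activity of the enzymes.

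To place these differences among all genes, genes that reached 1 CPM in at least one library were called where they differed 4-fold or more, with counts of 3 reads or fewer set at 3 reads. Of the 7 genes that passed this filter, 4 were called higher in the myeloid library, where 21.9% of the 15139 genes tested were. They were *mmp13a*, *MMP14* (ENSDARG00000002235) and both *TIMP2* genes. All but *TIMP2* (ENSDARG00000061226) passed the filter only through their myeloid level and so could be called higher but not lower. One gene, *mmp25b*, was called lower, as were 39.2% of all genes tested. *mmp9* and *MMP14* (ENSDARG00000008388) lay between the limits, and *mmp2* was not tested. The shares of all genes show that the 2 libraries differ broadly, so that a call for a single gene is common in both directions.

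Log2 ratios were taken as myeloid over thymus CPM after adding 1 CPM to each, and their median over the 15139 genes was −0.73. It shifted by 0.53 with edgeR's TMM library sizes, by 0.49 with DESeq2 size factors and by 0.06 without the 10 genes with most reads. On this log2 scale *mmp13a* was at 7.49, the *TIMP2* genes at 4.73 (ENSDARG00000075261) and 3.89 (ENSDARG00000061226), *MMP14* (ENSDARG00000002235) at 2.80, *mmp9* at 1.73, *mmp2* at −0.38 and *mmp25b* at −2.07. The 10th and 90th percentiles of all genes tested were −4.22 and 3.09, and *mmp13a* and both *TIMP2* genes were above this range. Calls of 3 genes turned on the scaling. *mmp9* was 4.99-fold higher in the myeloid library with TMM and 4.83-fold with DESeq2, past the 4-fold limit, and *MMP14* (ENSDARG00000008388) was 4.39-fold and 4.25-fold higher. *mmp25b* was then 2.82-fold and 2.92-fold lower in the myeloid library and no longer past it. With TMM or DESeq2 the calls were therefore 6 genes higher and 0 lower, against 4 higher and 1 lower with total reads. Over all genes tested, TMM gave 26.8% higher and 34.1% lower, and DESeq2 gave 26.3% higher and 34.5% lower. Without the 10 genes with most reads the 8 genes kept 4 higher and 1 lower, beside 22.4% higher and 38.8% lower over all genes tested.

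**Figure D4:**
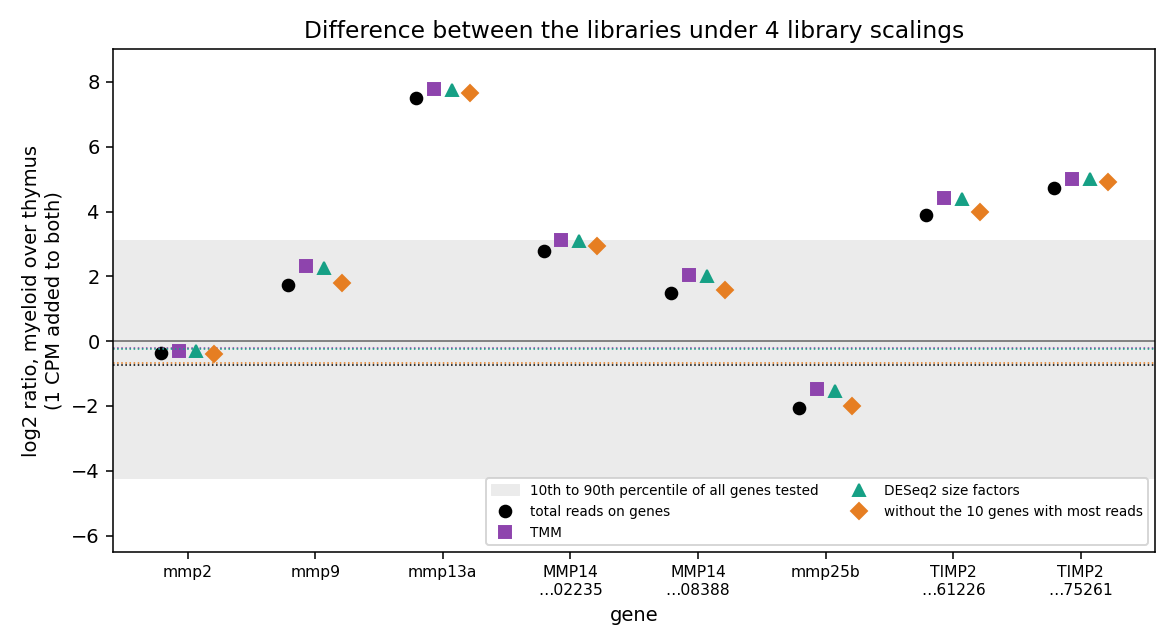
Log2 ratio of myeloid CPM over thymus CPM, each with 1 CPM added, for the 8 genes under 4 library scalings, with the 10th to 90th percentile of all genes tested in grey and the median of all genes under each scaling as dotted lines. *mmp13a* lies at 7.49 and *mmp25b* at −2.07 with total reads, and no gene crosses 0 under any of the 4 scalings.

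The other 22 genes named as MMPs or TIMPs or as *reck*, a membrane-anchored inhibitor of MMPs, had few reads. Of these, 20 were below 1 CPM in both libraries. They had at most 6 reads in the myeloid library, against 20 reads in the thymus library, and 7 had 0 reads in both. Over all 32520 genes counted, 15139 reached 1 CPM in at least one library. *mmp13b* (ENSDARG00000100794), the paralog of *mmp13a*, had 3 reads, or 0.0761 CPM, in the myeloid library, against 73 reads, or 2.21 CPM, in the thymus library, a 29.1-fold lower level in the myeloid library (9.58 to 144). The *mmp13* paralogs were thus found in opposite libraries, *mmp13a* in the myeloid and *mmp13b* in the thymus library. *mmp23bb* (ENSDARG00000009825) had 48 reads, or 1.22 CPM, in the myeloid library and 2 reads, or 0.0607 CPM, in the thymus library. *RECK* had 6 reads in the myeloid library, against 14 reads in the thymus library, and each of the 3 *TIMP4* genes had 1 read or fewer in either library. The 8 genes described first therefore held 99.8% of the reads on all 30 genes in the melanoma myeloid cells, against 99.1% in the thymus library.

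**Figure D5:**
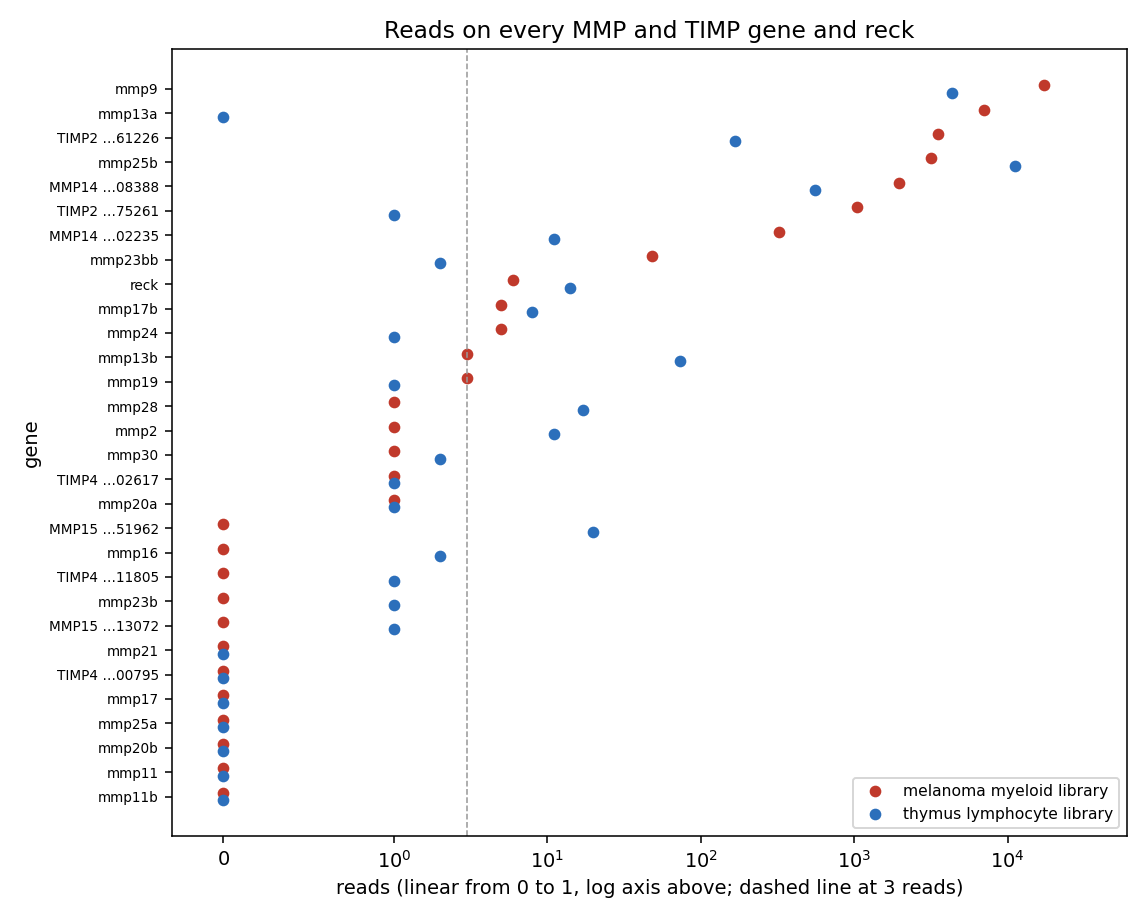
Reads on all 30 genes named as MMPs, TIMPs or *reck* (linear from 0 to 1, log axis above), in the melanoma myeloid library (red) and the thymus lymphocyte library (blue), with the dashed line at 3 reads. Outside the 8 genes described first, no gene exceeds 48 reads in the myeloid library, and *mmp13b* has 73 reads in the thymus library.

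Genes that act on MMPs or beside them were taken from lists and called by the same 4-fold rule, and their median log2 ratios stand beside −0.73 over all genes tested. Of all genes tested, 21.9% were higher and 39.2% lower, and each list's count is to be read beside these shares. Of 9 furin and plasmin system genes tested, 2 were higher and 3 lower in the myeloid library, with a median log2 ratio of −0.05. *FURIN* (ENSDARG00000062909), a convertase that activates membrane-anchored MMPs, was at 28.2 CPM in the myeloid library, against 55.2 CPM in the thymus library. *PCSK5*, a convertase too, was at 21.2 CPM in the myeloid library, against 9.31 CPM in the thymus library. *PCSK7*, another convertase, was at 1.67 CPM in the myeloid library, against 174 CPM in the thymus library. *SERPINE2*, an inhibitor of serine proteases, was at 774 CPM in the myeloid library, against 164 CPM in the thymus library. *plaua*, the urokinase-type plasminogen activator, was named after its values were seen, and had 692 reads, or 17.5 CPM, in the myeloid library and 1 read in the thymus library. It passed the filter only through its myeloid level. Both *SERPINB1* genes, called lower, passed only through their thymus level. Thus *plaua* and *SERPINE2* were both higher in the myeloid library, and the convertases did not share one direction.

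Of 10 cell surface partners tested, 3 were higher and 5 lower in the myeloid library, with a median log2 ratio of −0.50, beside 21.9% higher and 39.2% lower of all genes tested. Each of the 3 higher genes passed the filter only through its myeloid level, and each of the 5 lower genes only through its thymus level. *CD63*, a tetraspanin that binds TIMP1 in mammals, was at 1250 CPM in the myeloid library, against 383 CPM in the thymus library. *CD151* (ENSDARG00000068629), a tetraspanin that associates with integrins, reached 160 CPM in the myeloid library and had 0 reads in the thymus library. *BSG*, known in mammals as an inducer of MMPs, was at 55.9 CPM in the myeloid library, against 39.1 CPM in the thymus library. The ADAM and ADAMTS genes, a related family of metalloproteinases, had 3 genes higher and 7 lower of 14 tested, with a median log2 ratio of −0.60, beside the same shares of all genes. Every lower gene but *adam10a* passed the filter only through its thymus level, and the higher gene *adam28* only through its myeloid level. *adam8a* was at 349 CPM in the myeloid library, against 1.76 CPM in the thymus library. *adam10a*, a shedding protease of the cell surface, was at 55.0 CPM in the myeloid library, against 524 CPM in the thymus library. *ADAM17* (ENSDARG00000043213), which sheds TNF, was at 115 CPM in the myeloid library, against 106 CPM in the thymus library. The other *ADAM17* gene (ENSDARG00000093093) had 1 read in the myeloid library, against 6.00 CPM in the thymus library, and was called lower.

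Matrix proteins that MMPs cleave had 5 genes higher and 1 lower of 8 tested in the myeloid library, with a median log2 ratio of 2.47, beside 21.9% higher and 39.2% lower of all genes tested. The higher genes other than *lamc1* passed the filter only through their myeloid level and so could be called higher but not lower. The gene called lower passed only through its thymus level. *lamc1* and *COL4A1* encode basement membrane proteins. *lamc1* was at 35.2 CPM in the myeloid library, against 1.36 CPM in the thymus library. *COL4A1* was at 13.0 CPM in the myeloid library, against 0.121 CPM in the thymus library. *LAMB1* (ENSDARG00000101209) went the other way, at 0.127 CPM in the myeloid library, against 22.1 CPM in the thymus library. The other *LAMB1* gene (ENSDARG00000045524) was at 8.95 CPM in the myeloid library, against 2.82 CPM in the thymus library, and was not called. The fibrillar collagen genes *col1a1a* and *COL1A2* had 6 and 3 reads in the myeloid library, against 3 and 12 reads in the thymus library. Thus *mmp13a*, a collagenase gene, was expressed in a library with few reads on type I collagen genes.

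AP-1, a transcription factor dimer of Fos and Jun proteins, is a known activator of MMP9 and MMP13 transcription in mammals. Of 9 AP-1 genes tested, 4 were higher and 3 lower in the myeloid library, with a median log2 ratio of 0.65, beside 21.9% higher and 39.2% lower of all genes tested. *JUNB* (ENSDARG00000104773) was at 4444 CPM in the myeloid library, against 523 CPM in the thymus library, and *JUNB* (ENSDARG00000074378) was at 878 CPM in the myeloid library, against 91.7 CPM in the thymus library. *FOS* was at 740 CPM in the myeloid library, against 51.0 CPM in the thymus library, and *FOSL1* was at 313 CPM in the myeloid library, against 39.6 CPM in the thymus library. The 4 genes called higher were these Fos and JunB genes. The 3 called lower held other Fos genes, *FOSL2* at 44.2 CPM in the myeloid library, against 264 CPM in the thymus library, and *FOSB* at 2.94 and 14.3 CPM. *BATF*, also lower, had 0 reads in the myeloid library, against 877 reads in the thymus library, and passed the filter only through its thymus level. *JUN* was at 201 CPM in the myeloid library, against 684 CPM in the thymus library, and was not called.

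For *mmp9*, the gene of the 8 with the highest summed CPM (not scaled for length), the nearest named genes were sought by distance in log2(CPM + 1) over the 2 libraries. They were *PSMG2*, at 430 CPM in the myeloid library, against 127 CPM in the thymus library, *ATP6V1B2*, at 421 and 136 CPM, and *chmp4ba*, at 473 and 134 CPM. The distances were 0.06, 0.08 and 0.11, and over only 2 libraries such likeness is a description of levels.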

How the data were processed

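RNA of sorted cells was amplified with a SMART-Seq ultra-low input kit before Nextera XT library preparation. The values deposited for each Ensembl gene are htseq-count counts, which the authors did not normalize. The submitters' processing notes name cutadapt, STAR 3.0, HTSeq and GRCz11, whereas the paper's methods name TopHat and GRCz10. Counting options and annotation release are not given in the sources used here. The kit does not mark strand, so reads on overlapping genes are uncertain.

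The thymus table held 5 summary counts that name no gene, 28.4% of its reads, which were excluded. The myeloid table held 0. Symbols matched 29201 of 32520 identifiers, with a listed capital symbol without its paralog letter accepted. RefSeq GRCz12tu was used for names and neighbours only. No exon lengths or sequences were used here, so levels are not per length, and the motif searches intended for promoters and proteins were not run.

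CPM, 95% Wilson intervals, ratios of CPM with exact conditional binomial intervals and ratios of read ratios with conditional odds ratio intervals were obtained with scipy 1.17.1, numpy 2.4.6 and pandas 2.3.3 under Python 3.11.15, and the calling step was tested on simulated data. Library sizes were also taken from edgeR 4.0.16 (TMM) and DESeq2 1.42.0 in R 4.3.3, and after dropping the 10 most counted genes of each library. Other settings were thresholds of 0.5 and 5 CPM, a 2-fold limit, a pseudocount of 0.1 CPM, a filter of 10 reads, no filter on low values, and summing genes of one symbol. Figures were drawn with matplotlib 3.10.9.

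The genes and lists were chosen with earlier results of these data known. Named are the 8 genes, other MMP, TIMP and *reck* genes at 1 CPM or more, up to 4 genes of each other list with the highest CPM in the myeloid library and up to 2 in the thymus library, and the 3 genes nearest to *mmp9*. One gene that this rule names is not reported here. Other genes were named after their values were seen: *plaua*, *SERPINB1*, *mmp30*, *mmp25a*, *RECK*, *TIMP4*, *COL1A2*, *DCN*, *lyz*, *npsn*, *cxcr1*, *CSF3R*, *il6r*, *oca2*, *pmelb*, *FOSL2*, *FOSB*, *BATF*, *adam28*, *ADAM17* (ENSDARG00000093093) and the genes overlapping *mmp9* and *timp2a*.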

Additional observations from a re-analysis of the deposited data

How the results depend on the processing

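No paired analysis was possible because each group had a single library, which also leaves no replicate to omit. The number of genes called lower in the myeloid library among the 8 was 1, and it became 0 with TMM and 0 with DESeq2, and 2 when genes with 10 reads or more in either library were tested, which adds *mmp2*. The other 29 of 32 counts, of called or expressed genes, stayed within 1.5 times of their main value. The genes called higher among the 8 ranged from 4 to 6. Over all genes, 3309 were higher and 5939 lower in the main setting. The filter of 10 reads gave 3528 higher and 7268 lower, and the 2-fold limit gave 4546 higher and 7271 lower. Of 32 log2 ratios of the 8 genes under other scalings or a pseudocount of 0.1 CPM, 21 moved beyond their counting interval and 0 changed sign. Summing the genes of one symbol raised *MMP14* to 57.7 CPM and *TIMP2* to 115 CPM in the myeloid library. Depth limits *mmp2* and the thymus values of *mmp13a*, *MMP14* (ENSDARG00000002235) and *TIMP2* (ENSDARG00000075261), which rest on 11 reads or fewer.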
